A study of Mus musculus with 6 samples.

Results

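Wnt ligands, their receptors and the proteins that secrete them were examined in tumour epithelial cells of benign skin papillomas, with and without deletion of the stem cell transcription factor Sox2. The members were all genes whose annotated symbol is Wnt or Fzd followed by a number and an optional letter, together with Ror1, Ror2, Ryk, Ptk7, Lrp5, Lrp6, Porcn and Wls. This gave 37 genes (19 Wnt ligands, 10 Frizzled receptors, 4 receptors of tyrosine kinase type, 2 LRP coreceptors and 2 secretion genes) of 18193 genes on the array, read by 75 of its 45101 probe sets. Each gene is represented by 1 probe set, a set of short probes that together give 1 value, namely the one with the highest mean over all arrays. The rule used no difference between groups.

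Wnt proteins are secreted lipid-modified ligands. Porcn attaches the lipid and Wls carries the ligand to the cell surface. There a ligand binds a Frizzled receptor, and with Lrp5 or Lrp6 as coreceptor this stabilises beta-catenin, which switches on target genes together with TCF/LEF factors. Ror1, Ror2, Ryk and Ptk7 are single-pass receptors of tyrosine kinase type that act mainly in branches independent of beta-catenin, such as planar cell polarity. In skin, Wnt signals act in hair follicle formation and in the upkeep of epidermal stem cells.

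Each of the 6 samples was read on 1 Affymetrix mouse whole-genome array. The papillomas had been induced chemically and every mouse, control or not, had received tamoxifen for 1 week. The 3 Sox2cKO samples came from K14CREER:SOX2fl/fl mice, in which tamoxifen activates a Cre recombinase made from the keratin 14 promoter, so that floxed Sox2 is deleted in keratin 14-expressing epithelium and not in stroma. The 3 CTRL samples came from control mice whose alleles, like the ages of all the mice, are not given in the labels. Living single cells carrying Epcam and alpha6 integrin were sorted, and cells with CD45, CD31 or CD140a were excluded. The design text speaks of 3 biological experiments, and the labels do not say how many mice stand behind each array, so p-values measure the spread between these arrays.

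The label of the deleted gene was borne out by its signal. Sox2 read 7.19, 8.31 and 8.18 on the deposited log2 scale in CTRL replicates 1 to 3 and 4.07, 4.63 and 3.23 in Sox2cKO. All 3 Sox2cKO values lay under the detection limit defined below (4.90 to 4.94), so Sox2 was at least 7.91-fold higher in CTRL, taking the CTRL mean over that limit. The fit of the values as measured gave an adjusted p of 0.316 in limma, and 0.0425 without CTRL replicate 1. All 8 basal keratinocyte markers were above background, and their mean signal lay between 11.95 and 12.10 on every array. Epcam and Itga6 (alpha6 integrin) among them had been used for the sort. All listed suprabasal, fibroblast and pericyte, Langerhans cell and melanocyte markers were above background too, so passing it does not identify the cells. The arrays were otherwise not alike. CTRL replicates 2 and 3 read 12.03 and 11.85 for Xist, the RNA of the inactive X chromosome of females, and the other 4 arrays read 6.08 to 7.54. The Y-linked gene Eif2s3y read the other way round, at 3.72 and 3.45 in those controls and 9.52 to 9.67 elsewhere, so CTRL replicate 1 was the only control like the Sox2cKO arrays in both. The mean of 12 fibroblast and pericyte markers was 6.90 to 7.66 in CTRL and 7.84 to 9.21 in Sox2cKO, highest in Sox2cKO replicate 3, and all 12 were above background. The mean of 8 suprabasal keratinocyte markers was 9.54 to 10.61 in CTRL and 9.83 to 10.72 in Sox2cKO, and that of 5 Langerhans cell markers 7.51 to 8.23 and 6.57 to 7.52. Of these 5, only Cd207, near the detection limit, did not read lower in Sox2cKO. Of 10 leukocyte markers 7 were above background, among them Cd14 (7.90 to 9.19), Laptm5 (6.96 to 7.36) and Csf1r (6.79 to 6.97), and Cd3g, Cd79a and Itgam were not. Of 7 endothelial markers Kdr, Cldn5 and Esam were above background, and Pecam1, Cdh5, Tek and Emcn were not. Among the genes of the excluded surface proteins, Pecam1 (CD31) was thus below background. Ptprc (CD45), at 4.58 to 5.51, counted as above background, but CTRL replicate 2 and Sox2cKO replicate 3 lay under the detection limit. Pdgfra (CD140a), at 5.05 to 5.52 in CTRL and 5.49 to 7.25 in Sox2cKO, was above background.

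Most of the family was detected. A gene counted as above background where its signal passed the 40th percentile of all mouse probe sets (4.90 to 4.94, by array) on 3 arrays or more. This held for 32 of the 37 members, against 72.7% of all 18193 genes and 3 of 39 olfactory receptor genes, which served as a reference for low signal. All 10 Frizzleds, both LRP coreceptors, all 4 receptors of tyrosine kinase type and both secretion genes passed, and so did 14 of the 19 ligands. The 5 ligands that did not pass were Wnt2, Wnt2b, Wnt3, Wnt8a and Wnt8b, whose values lay between 3.56 and 4.71. Just inside the limit were Ror1, Wnt1, Wnt5b and Fzd9, which exceeded it on some arrays only, and just outside it was Wnt8b at a mean of 4.55. All 6 arrays exceeded the limit for 28 members (75.7%, against 66.6% of all genes). When the 60th percentile (6.12 to 6.21) was used, 22 members passed (59.5%, against 54.5% of all genes).

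**Figure D1:**
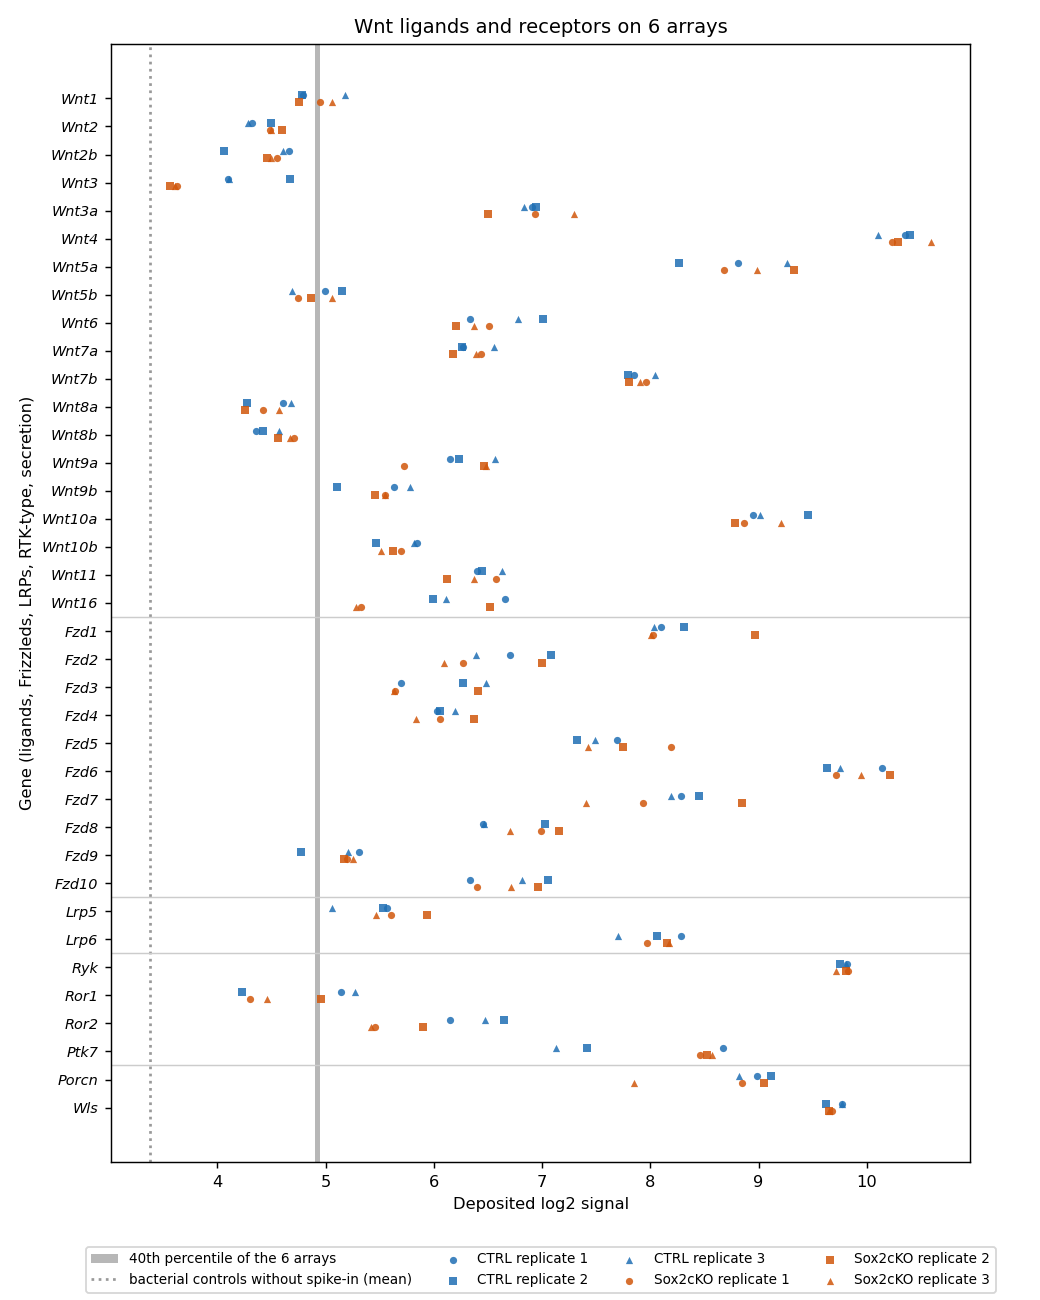
Deposited log2 signal (horizontal axis) of the 37 genes (vertical axis, in blocks of ligands, Frizzleds, LRP coreceptors, receptors of tyrosine kinase type and secretion genes) on 3 CTRL and 3 Sox2cKO arrays. The grey band is the 40th percentile of the arrays and the dotted line the mean of bacterial controls without spike-in. Wnt2, Wnt2b, Wnt3, Wnt8a and Wnt8b lie left of the band, and signals of different genes are not comparable because each probe set binds differently.

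Between Sox2cKO and CTRL, no member passed the test over all genes. The clearest separation was in Ror2, which read 1.78-fold lower in Sox2cKO. Ror2 was the only member above background whose groups were apart. Groups are called apart here where the lowest value of one group exceeds the highest of the other. The intervals of the epidermal ligands Wnt4 and Wnt7b, of the ligand carrier Wls and of the receptor Ryk lay within a 1.5-fold difference either way. Of the 32 members above background, 13 read higher and 19 lower in Sox2cKO (50.6% and 49.4% of all genes did), with a median log2 difference (Sox2cKO minus CTRL) of -0.021, against 0.0027 over all 13222 genes tested.

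In limma with Benjamini-Hochberg adjustment over those 13222 genes, 0 of the 32 members had an adjusted p under 0.05, as did 0 (0%) of all genes, and the lowest adjusted p of a member was 0.999. At an unadjusted p under 0.05 there was 1 member, Ror2, beside 354 genes (2.68%) in all, or 656 genes (4.96%) with the replicate number as a block. With a covariate for the arrays of high Xist there were 0 members and 94 genes (0.711%). Groups were apart in 1 member, beside 5.85% of all genes (2.73% higher and 3.12% lower in Sox2cKO), so the members' counts lay close to those of genes at large. In 31 of the 32 members the range of values within a group was larger than the difference between the group means. The same count was not made over all genes, so it does not set the members apart from them. The 95% interval of the difference lay within a 2-fold change either way for 26 of the 32 members (81.2%, against 91.6% of all genes) and within 1.5-fold for 16 of 32 (against 68.8% of all genes). By role, the first count was 13 of 14 ligands, 9 of 10 Frizzleds, both LRP coreceptors, 1 of 2 secretion genes and 1 of 4 receptors of tyrosine kinase type.

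**Figure D2:**
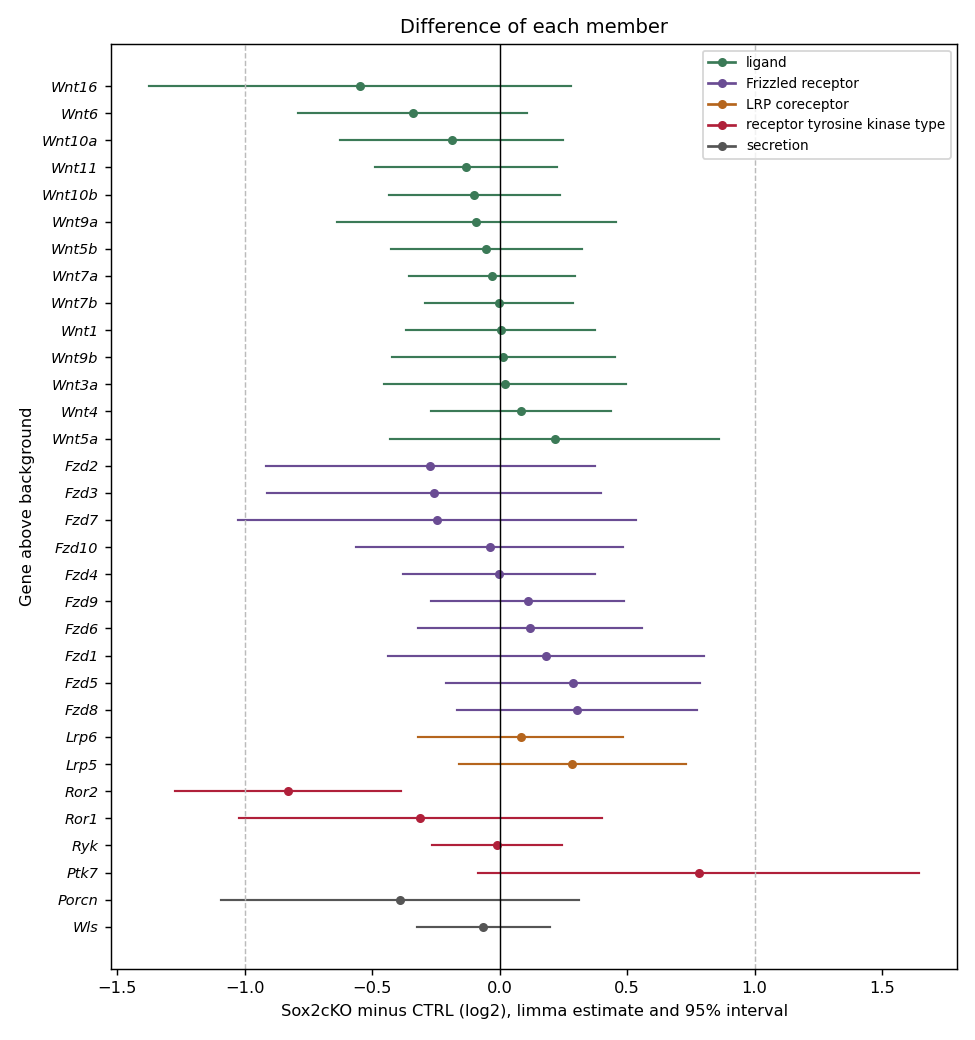
Difference of each of the 32 members above background (Sox2cKO minus CTRL, log2, horizontal axis) with its 95% interval from limma, by role. Dashed lines mark a 2-fold difference; only the interval of Ror2, from -1.28 to -0.39, leaves out 0, and that of Ptk7 is the widest.

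Of the ligands, Wnt16 had the widest difference. Wnt16 is made in the hair follicle and interfollicular epidermis. It read 6.66, 5.99 and 6.12 in CTRL and 5.33, 6.52 and 5.28 in Sox2cKO replicates 1 to 3, a log2 difference of -0.55 (standard error, SE, 0.35, unadjusted p = 0.162 in limma). Sox2cKO replicates 1 and 3 lay below all controls, and Sox2cKO replicate 2 lay among them. Without Sox2cKO replicate 2 the difference was -0.95, without Sox2cKO replicate 3 it was -0.33, without Sox2cKO replicate 1 it was -0.36, and without CTRL replicate 1 it was -0.35. With a covariate for the arrays of high Xist it was -0.95 (unadjusted p = 0.0912 in limma).

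Wnt6, an epithelial ligand of developing ectoderm, read 6.33, 7.01 and 6.78 in CTRL and 6.51, 6.21 and 6.37 in Sox2cKO. CTRL replicate 1 lay within the Sox2cKO values and the other controls lay above them. The other Wnt6 probe set above background differed by -0.30, and its suffix marks probes that can bind other transcripts. For the probe set used, the log2 difference was -0.34 (SE 0.19, unadjusted p = 0.115 in limma). Without CTRL replicate 1 it was -0.53, without CTRL replicate 2 it was -0.19, and with a covariate for the arrays of high Xist, which leaves CTRL replicate 1 as the only control to set against Sox2cKO, it was 0.03.

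The other ligands differed by -0.19 to 0.22. Wnt4, a ligand of interfollicular epidermis, read 10.29 ± 0.16 in CTRL and 10.37 ± 0.20 in Sox2cKO (mean ± SD, n = 3 each), with a 95% interval of the difference from -0.27 to 0.44. Wnt10a, a ligand in which inherited loss of function affects hair, teeth and skin, read 9.14 ± 0.28 and 8.95 ± 0.23. Wnt7b, a ligand of basal keratinocytes and hair follicles, read 7.89 ± 0.13 and 7.89 ± 0.08, and its interval from -0.29 to 0.29 was the narrowest of the ligands. The values of each of these genes overlapped between the groups.

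Wnt5a, the main ligand of Ror2, read 8.81, 8.27 and 9.27 in CTRL and 8.68, 9.32 and 8.98 in Sox2cKO. The lowest value was in CTRL replicate 2, the groups overlapped, and all 3 of its probe sets above background read higher in Sox2cKO by 0.22 to 0.32. The difference was 0.46 without CTRL replicate 3 and -0.04 without CTRL replicate 2. Stroma makes Wnt5a as well as epithelium, the fibroblast marker level differed between the arrays as given above, and its part in this value was not tested. Fewer cells of a type and less RNA per cell cannot be told apart in such sorted bulk samples.

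Wnt3a read 6.89 ± 0.06 in CTRL and 6.91 ± 0.40 in Sox2cKO, where replicates 2 and 3 stood at 6.50 and 7.30 on either side of the controls. Wnt11, a ligand of the beta-catenin-independent branch, read 6.49 ± 0.12 and 6.36 ± 0.23, and Wnt7a, a relative of Wnt7b, read 6.36 ± 0.17 and 6.33 ± 0.13. Wnt9a read 6.31 ± 0.22 and 6.22 ± 0.43, with Sox2cKO replicate 1 at 5.72 below the other 5 arrays. The values of Wnt9b (5.50 ± 0.36 and 5.52 ± 0.05), Wnt10b (5.71 ± 0.21 and 5.61 ± 0.09), Wnt5b (4.94 ± 0.23 and 4.89 ± 0.16) and Wnt1 (4.92 ± 0.23 and 4.92 ± 0.15) overlapped between groups as well. The suffix of the Wnt5b probe set marks probes that can bind other transcripts.

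The 5 ligands below background give bounds only. Wnt3 read 4.09, 4.67 and 4.10 in CTRL and 3.62, 3.56 and 3.61 in Sox2cKO, so the groups did not overlap, but every value lay under the detection limit. The suffix of its single probe set marks probes that can bind other transcripts. Bacterial controls without spike-in read 3.30 to 3.44 on these arrays, close to the Sox2cKO values. No fold is given.

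Several ligands are chromosomal neighbours. In the RefSeq gene order of assembly GRCm38.p6, 4 pairs had 0 other coding genes between them: Wnt6 and Wnt10a, Wnt3a and Wnt9a, Wnt1 and Wnt10b, and Wnt3 and Wnt9b. Both genes of the first 3 pairs were above background, while of the last pair Wnt9b was and Wnt3 was not. Wnt6 and Wnt10a both read highest in CTRL replicate 2 (7.01 and 9.46) and lowest in Sox2cKO replicate 2 (6.21 and 8.78). Wnt3a and Wnt9a shared neither their highest nor their lowest array, and nor did Wnt1 and Wnt10b. CTRL replicate 2 was the highest array for 3 of 14 ligands and 23.5% of all genes tested. Sox2cKO replicate 2 was the lowest for 6 of 14 ligands and 18.0% of all genes, so the shared pattern is not particular to neighbours.

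Of the secretion genes, Porcn, the acyltransferase that adds the lipid, read 8.98, 9.11 and 8.82 in CTRL and 8.84, 9.05 and 7.85 in Sox2cKO. A single array, Sox2cKO replicate 3, lay below the rest, and the log2 difference of -0.39 (SE 0.30, unadjusted p = 0.231 in limma) was -0.03 without it. It was -0.62 without Sox2cKO replicate 2 and -0.52 without Sox2cKO replicate 1. Sox2cKO replicate 3 also had the highest fibroblast and pericyte marker level and the highest 18S ribosomal RNA signal (12.49, against 10.96 to 11.78 on the others), and the part of these in the value was not tested. Wls, the ligand carrier, read 9.72 ± 0.09 in CTRL and 9.66 ± 0.01 in Sox2cKO, with a 95% interval of the difference from -0.32 to 0.20.

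The 10 Frizzleds, the receptors that bind Wnt through a cysteine-rich domain, split evenly, with 5 higher and 5 lower and a median of 0.05. Fzd6, a receptor needed for the orientation of hair follicles, read 9.84 ± 0.26 in CTRL and 9.96 ± 0.25 in Sox2cKO. Fzd5 read 7.69, 7.32 and 7.48 in CTRL and 8.19, 7.75 and 7.42 in Sox2cKO, a log2 difference of 0.29 (SE 0.21, unadjusted p = 0.214 in limma). Sox2cKO replicate 1 stood above the controls by the most, and without it the difference was 0.09, while without Sox2cKO replicate 3 it was 0.47. Fzd8 read 6.46, 7.02 and 6.46 in CTRL and 6.99, 7.16 and 6.70 in Sox2cKO, a log2 difference of 0.30 (SE 0.20, unadjusted p = 0.173 in limma). CTRL replicate 2 lay among the Sox2cKO values, and without it the difference was 0.49. With the covariate for high Xist the 2 differences were 0.09 for Fzd5 and 0.49 for Fzd8.

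Spread among the Sox2cKO arrays was wider than the group difference for several Frizzleds. Fzd7, a receptor with roles in stem cells of several epithelia, read 8.28, 8.45 and 8.19 in CTRL and 7.93, 8.84 and 7.41 in Sox2cKO, a range of 1.43 within Sox2cKO against a difference of -0.25. Sox2cKO replicate 2 was the highest of the 6 arrays and replicate 3 the lowest. Without replicate 2 the difference was -0.64, and without replicate 3 it was 0.08. The same arrays were the highest and the lowest for Fzd1 (8.15 ± 0.14 in CTRL and 8.33 ± 0.55 in Sox2cKO) and Fzd4. Sox2cKO replicate 2 was the highest array for 5 of the 10 Frizzleds, and replicate 3 was the lowest for 5, where 25.3% and 19.2% of all genes had their highest and lowest value on those arrays. Sox2cKO replicate 2 also had the highest mean of the 5 melanocyte markers (6.98, against 5.00 to 6.20 on the other arrays), and the part of this was not tested.

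Of the remaining Frizzleds, Fzd2 read 6.72 ± 0.35 in CTRL and 6.45 ± 0.48 in Sox2cKO, and its 3 probe sets differed by -0.48 to -0.03. Fzd3, a receptor of the planar polarity branch, read 6.15 ± 0.41 and 5.89 ± 0.45, and its 4 probe sets disagreed in sign, from -0.26 to 0.06. Fzd10 (6.73 ± 0.36 and 6.69 ± 0.28), Fzd4 (6.09 ± 0.09 and 6.09 ± 0.27) and Fzd9 (5.09 ± 0.28 and 5.20 ± 0.04) had group means at most 0.11 apart. No Frizzled had groups apart.

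The coreceptors of the beta-catenin branch overlapped between groups. Lrp5 read 5.57, 5.53 and 5.06 in CTRL and 5.61, 5.94 and 5.47 in Sox2cKO, a log2 difference of 0.28 (SE 0.19, unadjusted p = 0.177 in limma). CTRL replicate 3 was the lowest array, without which the difference was 0.12, and it was 0.15 without Sox2cKO replicate 2. With the covariate for high Xist it was 0.10. Lrp6 read 8.02 ± 0.30 and 8.10 ± 0.11, with a 95% interval of the difference from -0.32 to 0.48.

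Ror2, a receptor of Wnt5a with a tyrosine kinase domain that acts in planar polarity, had the smallest unadjusted p of the members. It read 6.15, 6.65 and 6.47 in CTRL (6.42 ± 0.25) and 5.46, 5.90 and 5.42 in Sox2cKO (5.59 ± 0.27). The lowest control, replicate 1, lay above the highest Sox2cKO array, replicate 2. The log2 difference was -0.83 (SE 0.19), with a 95% interval from -1.28 to -0.39. The unadjusted p was 0.00289 and the adjusted p 0.999 in limma, while an exact permutation test (two-sided) gave p = 0.1, which is the lowest possible p in a design of 3 and 3 arrays. Leaving out each array in turn gave -0.99 to -0.72. Groups that are apart stay apart whichever array is left out, so this is no further check of the separation. With the covariate for high Xist, which sets Sox2cKO against CTRL replicate 1, the difference was -0.56 (unadjusted p = 0.0631 in limma). The mean of the fibroblast and pericyte markers, given above, read the opposite way, lying above 7.66 on every Sox2cKO array and none of the controls. The single markers were less uniform. In Sox2cKO replicate 1, Pdgfrb, Col5a1, Thy1, Rgs5 and Cspg4 lay above every control, Fbln2 lay below every control, and the others lay within the control values. The mean of the Langerhans cell markers mostly read the same way as Ror2 (8.23, 7.51 and 7.96 in CTRL, 6.77, 7.52 and 6.57 in Sox2cKO). The difference in that mean came from Cd74, H2-Aa, H2-Ab1 and H2-Eb1. Cd207 in the same list read 5.184, 4.812 and 5.167 in CTRL and 5.175, 4.964 and 5.065 in Sox2cKO. The part of either marker list in the Ror2 value was not tested. The other Ror2 probe set was not above background.

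Because Ror2 was the member with groups apart and its paralogue Ror1 was not, their promoters were set side by side. Both are the 250 bases before the annotated start on the strand of the gene, from RefSeq with build GRCm38.p6, at chr4:100095541-100095790 on the plus strand for Ror1 and at chr13:53286125-53286374 on the minus strand for Ror2. Capitals mark the 6-base core ACAAAG bound by SOX factors, on either strand, so that CTTTGT is the same core read on the opposite strand.
Ror1: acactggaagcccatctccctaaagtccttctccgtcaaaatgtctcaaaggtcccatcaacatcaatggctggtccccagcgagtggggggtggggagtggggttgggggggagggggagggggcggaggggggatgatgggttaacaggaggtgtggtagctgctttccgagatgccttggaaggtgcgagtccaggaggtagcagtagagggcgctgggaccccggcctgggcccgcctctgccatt
Ror2: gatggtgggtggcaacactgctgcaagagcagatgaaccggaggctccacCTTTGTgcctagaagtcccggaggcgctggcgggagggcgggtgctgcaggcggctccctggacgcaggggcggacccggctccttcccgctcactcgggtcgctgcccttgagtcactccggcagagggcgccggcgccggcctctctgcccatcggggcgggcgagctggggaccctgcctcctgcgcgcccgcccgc
The Ror2 window held 1 such core, beginning 200 bases before the start, and the Ror1 window held 0. Of 32851 promoters of this length, 16.5% held ACAAAG on either strand, and among the 26 members whose promoter was listed there were 4 with a match, namely Fzd1, Fzd7, Ror2 and Wnt8b. On either strand, the other SOX core searched, ACAAT, stood in 3 members (Fzd10, Wnt1 and Wnt16) and 27.7% of promoters, and the TCF/LEF core ATCAAAG in 2 members (Wnt11 and Wnt5b) and 3.21%. ACAAAG shares letters with sites of TCF/LEF factors. Such a match describes the letters in this window and is not a measured binding site.

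Ror1 itself read 5.14, 4.23 and 5.28 in CTRL and 4.30, 4.95 and 4.45 in Sox2cKO, around the detection limit. CTRL replicate 2 was the lowest array, without which the log2 difference of -0.31 was -0.64. It was -0.11 without CTRL replicate 3, -0.18 without CTRL replicate 1 or Sox2cKO replicate 1, and -0.50 without Sox2cKO replicate 2. The Xist covariate gave -0.57.

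Ptk7, a pseudokinase receptor of planar polarity, read 8.67, 7.41 and 7.13 in CTRL and 8.46, 8.52 and 8.57 in Sox2cKO. CTRL replicate 1 was the highest of the 6 arrays and the other controls were more than 1.0 below every Sox2cKO array, so the Sox2cKO values lay between the controls. The log2 difference was 0.78 (SE 0.37, unadjusted p = 0.0704, adjusted p = 0.999 in limma). It was 1.25 without CTRL replicate 1 (unadjusted p = 0.000134, adjusted p = 0.177) and 0.48 without CTRL replicate 3, and -0.16 with the covariate for high Xist. The 2 low arrays were the 2 of high Xist signal, and the part of this in the value was not tested. Ptk7 had a single probe set with 1 gene. Ryk, a receptor whose kinase domain is inactive, read 9.79 ± 0.04 in CTRL and 9.78 ± 0.06 in Sox2cKO, and its interval from -0.27 to 0.24 was the narrowest of the receptors.

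**Figure D3:**
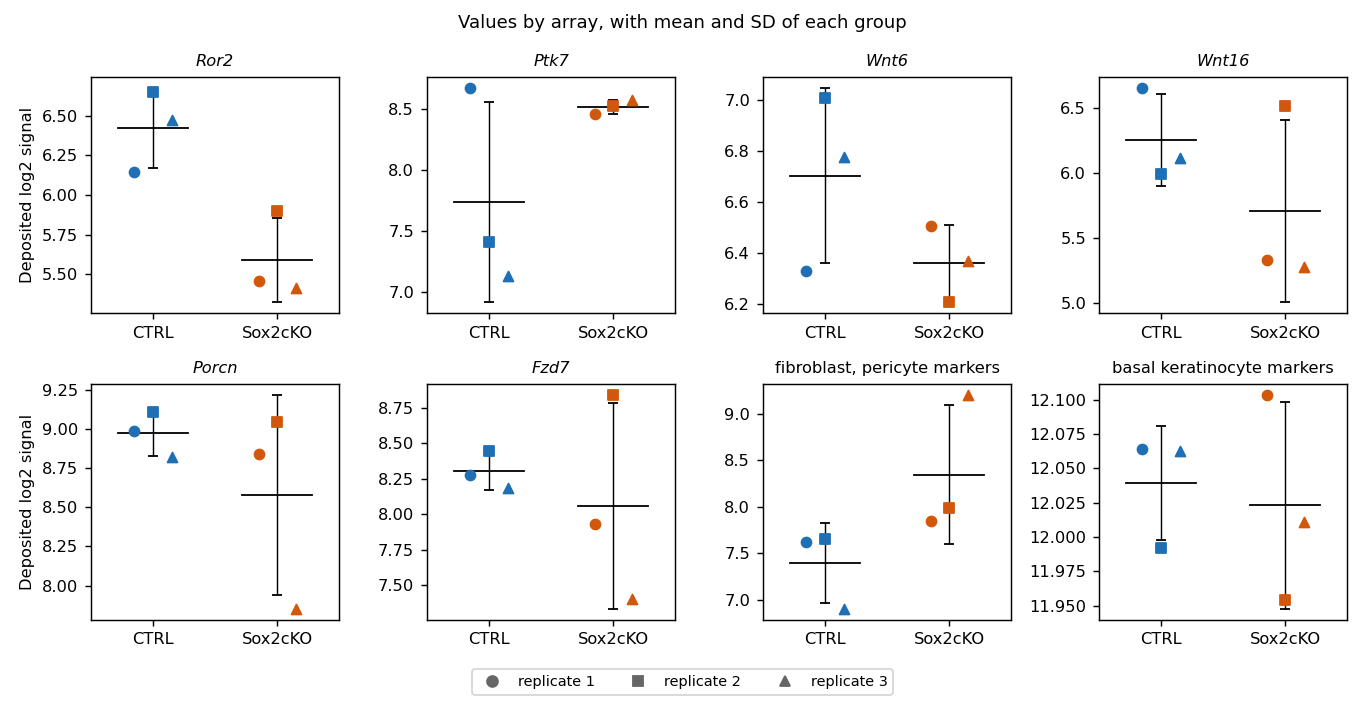
Deposited log2 signal (vertical axis) of 6 members and the mean log2 signal of 12 fibroblast and pericyte markers and 8 basal keratinocyte markers on each array, with a line for the group mean and bars for the SD; each panel has its own scale, which does not start at 0. Ror2 has groups apart, Ptk7 is high in CTRL replicate 1, Porcn is low in Sox2cKO replicate 3 and Fzd7 spans the widest range within Sox2cKO.

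Of the 32 members, 14 had more than 1 probe set above background. For 8 of these all such probe sets pointed the same way (Fzd1, Fzd2, Fzd5, Wls, Wnt4, Wnt5a, Wnt6 and Wnt7b). For 6 they did not, namely Fzd3, Fzd4, Fzd6, Lrp6, Ryk and Wnt7a, whose probe sets lay between -0.26 and 0.26. The other 18 members, Ror2 and Ptk7 among them, rested on 1 probe set each.

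**Figure D4:**
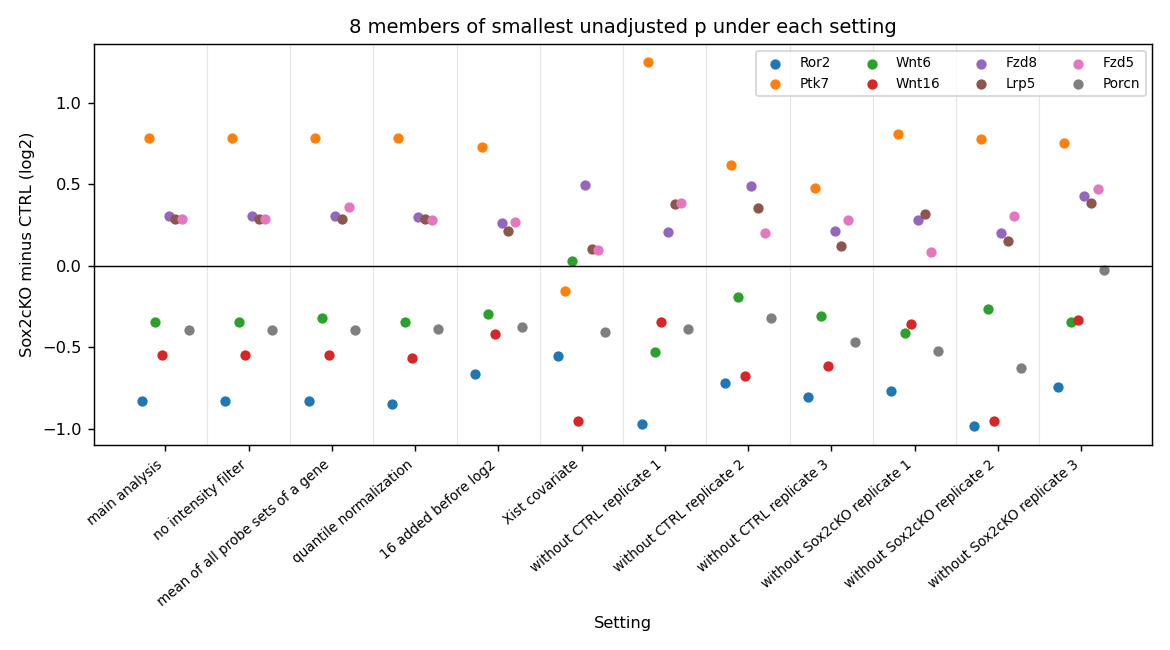
Log2 difference (Sox2cKO minus CTRL, vertical axis) of the 8 members of smallest unadjusted p in the main analysis and under 11 other settings (horizontal axis). Ror2 stays below 0 under each setting shown, Ptk7 falls to -0.16 with the covariate for high Xist, and Porcn lies at -0.03 without Sox2cKO replicate 3.

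The rest of the pathway was read from 6 lists, in which 0 genes passed the adjusted threshold in limma. In the list of beta-catenin transduction, from Dishevelled and Axin to the TCF/LEF factors, 8 of 27 tested genes read higher and 19 lower, with a median of -0.05. Its genes of smallest unadjusted p were Bcl9, a coactivator of beta-catenin, at -0.23 (SE 0.14), Apc, a scaffold of the destruction complex, at 0.17 and the kinase gene Csnk1a1 at 0.13. Csnk1a1 had groups apart, but the mean of its probe sets differed by -0.17. Bcl9, Apc and Csnk1a1 differed by -0.10, 0.0074 and 0.047 with the covariate for high Xist. All 27 intervals lay within a 2-fold difference.

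Among 11 tested secreted inhibitors and R-spondins, 5 read higher and 6 lower. Notum, an enzyme that removes the lipid from Wnt and is itself a target of the pathway, read 6.51, 6.76 and 6.96 in CTRL and 5.99, 6.17 and 6.51 in Sox2cKO. The nearest arrays, CTRL replicate 1 and Sox2cKO replicate 3, were almost level, and the log2 difference was -0.52 (SE 0.18, unadjusted p = 0.0236 in limma), or -0.29 (unadjusted p = 0.291 in limma) with the covariate for high Xist. Sfrp2, a secreted Frizzled-like antagonist, read 5.64, 5.58 and 4.27 in CTRL and 5.11, 6.75 and 7.06 in Sox2cKO (log2 difference 1.14, SE 0.57, or 0.67 with that covariate). Fibroblasts make Sfrp2, and it was highest in Sox2cKO replicate 3 and lowest in CTRL replicate 3, as was the mean of the 12 fibroblast and pericyte markers. The part of this was not tested. Sfrp5 differed by 0.25 with groups apart.

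Of 15 tested feedback targets, 5 read higher and 10 lower, with a median of -0.03, and after Notum the genes of smallest unadjusted p were Tcf4, which encodes the helix-loop-helix factor E2-2 (-0.31) and the cyclin gene Ccnd1 (-0.38). They differed by -0.11 and -0.13 with the covariate for high Xist. The R-spondin receptors and Frizzled turnover genes split 3 and 3. Lgr5, an R-spondin receptor and stem cell marker, read 6.63, 5.55 and 4.86 in CTRL and 6.79, 7.37 and 4.90 in Sox2cKO, a spread within groups larger than its difference of 0.67. Lgr4 differed by -0.27 and Lgr6 by -0.36. With that covariate Lgr5 turned to -0.28, and Lgr4 and Lgr6 were at -0.074 and -0.13.

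In the planar polarity branch 9 of 16 tested genes read higher and 7 lower, with a median of 0.0089. Ankrd6, the homologue of the fly polarity gene diego, read 5.19, 5.70 and 5.49 in CTRL and 5.11, 5.09 and 4.81 in Sox2cKO, with groups apart (log2 difference -0.45, SE 0.17, unadjusted p = 0.0294 in limma). It was -0.14 (unadjusted p = 0.317 in limma) for the mean of its probe sets and -0.18 (unadjusted p = 0.42 in limma) with the covariate for high Xist. Vangl1, a core polarity gene, differed by -0.34, or -0.013 with that covariate, and Intu by -0.11. Of 10 tested trafficking genes and surface partners 4 read higher and 6 lower. Gpc6, a glypican that binds Wnt at the cell surface, read 5.43, 5.79 and 5.47 in CTRL and 4.99, 5.03 and 5.03 in Sox2cKO, with groups apart (log2 difference -0.55, SE 0.13, unadjusted p = 0.00426 in limma). With the covariate for high Xist it was -0.42 (unadjusted p = 0.0801 in limma). Gpc4 differed by -0.20 with groups apart, and Adgra3 by -0.61, with Sox2cKO replicate 2 above the controls and the other Sox2cKO arrays below them.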

How the data were processed

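The deposited table holds 1 log2 value per probe set and array. That the scale is log2 was read from the range of values (2.65 to 14.44), as the labels do not state it. R 2.14.0 is the only tool named, per the submitters' processing notes. How the authors corrected background, summarised probes and normalized is not given in the sources used here. Array medians of 5.42 to 5.46 show a common scale, so a shift shared by most genes would not be seen. Per the labels' protocols, 100 ng of RNA was amplified by a 3' labelling kit, which favours the 3' ends of transcripts. The number of arrays limits the precision.

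Of 45101 probe sets, 34945 had 1 gene in the platform annotation, 932 had several and 9160 were unnamed; only the first were used, and 0 symbols needed updating through their Entrez identifiers. Probe sets passed where at least 3 of 6 arrays exceeded the 40th percentile, which left 13222 genes, each read by its probe set of highest mean. All of these entered 1 fit by limma 3.58.1 (lmFit, then eBayes, run in R 4.3.3), whose p-values are two-sided, with a threshold of 0.05, and the procedure was tested on simulated data. The labels give both groups the replicate numbers 1 to 3. Arrays of 1 number deviated together from their group means (correlations across genes 0.288, 0.206 and 0.211, each over the level of 0.1 set for pairing), against -0.333 to 0.064 for other numbers. Deviations of 3 arrays from their own mean sum to 0, so positive values for equal numbers push those of other numbers down. The check can thus not show that arrays were paired, and the labels state no pairing. The replicate block is given as an alternative setting only. The members and lists were chosen with earlier results of these data known. All members are named; values of every array are given for the 8 of smallest unadjusted p and for others whose arrays stand apart, which were chosen after their values were seen. From each list up to 3 genes of smallest unadjusted p and all with groups apart are named. Of the genes in the pathway lists, Tcf7, Kremen2, Prickle3, Rock2 and Mesd were not analysed here.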

Additional observations from a re-analysis of the deposited data

How the results depend on the processing

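No member passed the adjusted threshold under any of the 14 alternatives, which were 8 other settings and the omission of each of 6 arrays. The sign of the difference stayed the same under all of them for 11 members and turned under at least 1 for the other 21. Ror2 was among the 11, but with its groups apart its sign could not turn when an array was left out. The same count was not made over all genes, so it does not compare the members with them. A replicate block, with arrays paired by number, changed no adjusted call: it left 0 genes past the threshold and gave Ror2 -0.83 (adjusted p = 0.653 in limma).

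The covariate for high Xist left 1 gene of all genes past the threshold, Ostf1, and 0 members at an unadjusted p under 0.05. It turned Fzd10 to 0.36, Fzd3 to 0.20, Fzd4 to 0.061, Fzd6 to -0.18, Fzd9 to -0.10, Lrp6 to -0.19, Ptk7 to -0.16, Wnt10a to 0.0027, Wnt6 to 0.032, Wnt7a to 0.061, Wnt7b to 0.041, Wnt9a to 0.077, Wnt9b to -0.12 and Lgr5 to -0.28, and moved the list medians of feedback targets to 0.077 and of planar polarity to -0.069. With the mean of all probe sets of a gene, 3 members had groups apart (Fzd5, Ror2 and Wls), beside 6.32% of all genes. Under that setting Fzd4 turned to 0.048, Ryk to 0.043, Wnt7a to 0.12 and Csnk1a1 to -0.17, and the median of secreted inhibitors was 0.11. Without the intensity filter 2 members had groups apart and 2 had an unadjusted p under 0.05 in limma, in both cases Ror2 and Wnt3. Of all genes, 6.46% and 2.69% did. With the 60th percentile filter both counts were 0, since Ror2 was then not tested, beside 5.77% and 2.5% of all genes. Both arrays of high Xist were controls, so the covariate sets Sox2cKO against CTRL replicate 1 alone, and its values show where that array lies. Why the mean of probe sets moved values was not tested.

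Leaving out 1 array gave 0 to 5 genes past the threshold, 1 to 6 members with groups apart and 1 to 4 members at an unadjusted p under 0.05, where 10.8% to 20.1% of all genes had groups apart and 1.51% to 4.82% such a p. The 5 genes, met without CTRL replicate 1, were Sox2 at -4.27 (adjusted p = 0.0425 in limma), Xist and the Y-linked Eif2s3y, Kdm5d and Uty. As measured, with Sox2cKO under the detection limit, Sox2 ranged from -4.27 to -3.54. It was -2.98 with 16 added before log2 and -3.21 with the Xist covariate. Groups were apart in 6 members without CTRL replicate 2 (Fzd8, Ror1, Ror2, Wls, Wnt10b and Wnt9b; 10.8% of all genes) and in 6 without Sox2cKO replicate 2 (Fzd1, Fzd2, Fzd3, Fzd7, Ror2 and Wnt16; 20.1%). They were apart in 3 members without CTRL replicate 1 (18% of all genes), 2 without Sox2cKO replicate 1 (13.6%) and 4 without Sox2cKO replicate 3 (16.9%). Without Sox2cKO replicate 2, Fzd2, Fzd7, Ror2 and Wnt16 were at an unadjusted p under 0.05, as were 4.78% of all genes. The median of secreted inhibitors ranged from -0.11 to 0.085 and that of feedback targets from -0.16 to -0.011. Members whose sign turned ranged from -0.14 to 0.34 (Fzd1), -0.24 to 0.12 (Fzd10), -0.15 to 0.12 (Fzd4), -0.010 to 0.26 (Fzd6), -0.64 to 0.080 (Fzd7), -0.051 to 0.22 (Fzd9), -0.077 to 0.22 (Lrp6), -0.034 to 0.022 (Ryk), -0.067 to 0.14 (Wnt1), -0.17 to 0.22 (Wnt3a), -0.030 to 0.15 (Wnt4), -0.042 to 0.46 (Wnt5a), -0.18 to 0.050 (Wnt5b), -0.082 to 0.067 (Wnt7a), -0.055 to 0.070 (Wnt7b), -0.22 to 0.16 (Wnt9a) and -0.19 to 0.15 (Wnt9b), and Lgr6 from -0.74 to 0.32. With 3 arrays a group, the standard errors of 0.11 to 0.37 limit what could be seen.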
